A study of Bos taurus with 18 samples.

Results

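The COPII coat is the protein shell that buds transport vesicles from the endoplasmic reticulum and so carries newly made secreted proteins toward the Golgi. The small GTPases SAR1A and SAR1B start the coat, SEC23A and SEC23B form its inner layer together with the cargo adaptors SEC24A, SEC24B, SEC24C and SEC24D, and SEC13 and SEC31A build the outer cage. In matrix-forming cells this route carries bulky cargo such as procollagen, and inherited loss of SEC23A or SEC24D disturbs the skeleton, whereas loss of SEC23B disturbs red cell formation and loss of SAR1B disturbs fat absorption. The 10 coat genes were taken by symbol from the count files, and all 10 of them were present among the 16989 genes listed. The group was chosen by name, but with earlier results of these same counts known, in which gene levels in the clones were set against the matrix that each clone later deposited. Matrix deposition was not analysed here, and the levels below are a description of the coat genes over libraries.

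Bovine mesenchymal stem cells (MSCs) from the bone marrow of juvenile cows were grown to passage 1 on tissue culture plastic in basal medium with serum and antibiotics, without differentiation. RNA was taken from 17 clonal populations, each grown from a single cell, and from 1 heterogeneous (not clonal) population, and all 18 shared the same medium and library chemistry. The paper compared the clones to ask whether the RNA of undifferentiated cells foretells cartilage-like matrix. With a single library from each population, the error of any 1 clone is unknown, and spread below means that between clones. The number of animals behind the clones, and which clones share one, is not given in the sources used here.

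Reads on genes ranged from 11484812 to 18458157 per clone (median 14193790) and came to 16092501 in the heterogeneous library. Markers of marrow stromal cells had a summed level of 33800 to 172000 CPM (reads of a gene scaled to the library's reads on genes with TMM factors) in the clones and 174000 CPM in the heterogeneous library, most of it from COL1A1 and COL1A2. CD44, THY1 and PDGFRB each had at least 2607 reads in every library, whereas LEPR had at most 2 reads and VCAM1 at most 47. The heterogeneous library stood apart in its macrophage markers. The summed level of these was 343 CPM against 16.7 to 98.3 CPM in the clones. Of the 20 genes 19 lay above every clone, against 10% of all genes tested, and MARCO had 0 reads in every library. Some of the 19 lay close to the clones, such as C1QB (1 read against 0), LYZ (2 against at most 1) and CTSS (1380 against at most 1312). For endothelial, red cell, adipocyte, osteoblast and cartilage markers the summed level of the heterogeneous library lay within the range of the clones. Single genes could differ, as the endothelial gene VWF had 170 reads there against at most 93 in a clone. Most of the cartilage sum came from COL11A1 (55537 reads), while COL2A1 (264 reads) and HAPLN1 (69 reads) had fewer reads than in any clone. Clone N also stood apart, with 86 genes called by edgeR when set against the remaining 16 clones, where clone M had 4 and no other clone had any. DESeq2 called genes in further clones too, such as L and Q, with the most in clone N. Values without clone N are given beside many, but not all, of the SDs, tests and correlations in which it lay far out.

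All 10 coat genes were well counted, at 234 reads for the lowest value (SAR1B in clone A) and 8176 for the highest (SEC31A in clone M), and all 10 passed the filter on low counts. Their summed level over the 17 clones ran from 1618.8 CPM in clone L to 2153.3 CPM in clone A, with a median of 1899.2 CPM, which is a range of 1.33-fold (SD 0.14 log2 units, n = 17 clones). Levels are not compared between genes, since the reads of a gene also depend on its length and transcript lengths were not used here. The sum is carried mostly by the genes with the most reads, such as SEC31A, so the genes are also given one by one.

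**Figure D1:**
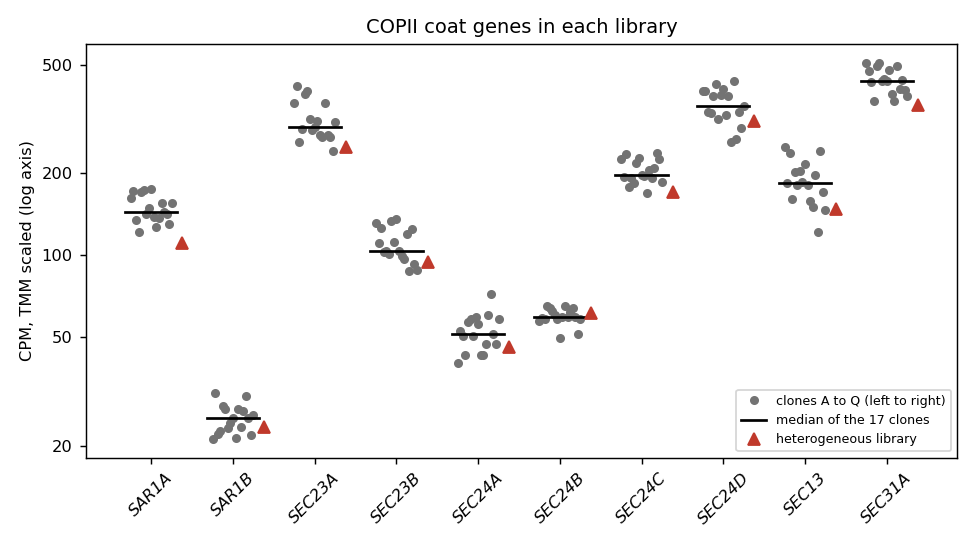
Levels of the 10 COPII coat genes in CPM (TMM scaled, log axis) in the 17 clones (grey points, clones A to Q from left to right) with their median (black bars) and in the heterogeneous library (red triangles). Within a gene the clones stayed within 1.32-fold (SEC24B) to 2.05-fold (SEC13, where clone N is lowest) of each other, and the triangles of SAR1A and SEC31A lie below every clone; heights of different genes depend on gene length and are not compared.

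Among the GTPases, SAR1A had 121.9 CPM in the lowest clone (D), a median of 144.1 CPM and 175.2 CPM in the highest (I). SAR1B, which is needed for the export of very large lipoprotein particles in the gut, ran from 21.2 CPM in clone A through a median of 25.3 CPM to 31.2 CPM in clone B. Both had an SD of 0.17 log2 units between clones. Counting error alone corresponds to an SD of 0.076 log2 units for SAR1B and 0.031 for SAR1A. The GTPase genes thus differed little between clones, and part of the SAR1B spread is that of counting.

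In the inner layer, SEC23A ran from 241.3 CPM in clone P through a median of 295.7 CPM to 417.4 CPM in clone B (SD 0.23 log2 units), and clone F followed at 400.4 CPM. SEC23B, its close paralog, ran from 87.5 CPM in clone N through a median of 103.4 CPM to 135.8 CPM in clone I (SD 0.21), and clone G followed at 133.6 CPM. The clones highest for SEC23A (B, F and E) were not those highest for SEC23B (I, G and A), and over the 17 clones the Pearson r between the genes was 0.157 (Spearman rho 0.221, r = 0.267 without clones B and F).

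The cargo adaptors fall into 2 pairs of close relatives, SEC24A with SEC24B and SEC24C with SEC24D. SEC24A was lowest in clone A at 40.3 CPM and highest in clone N at 72.2 CPM (median 51.6 CPM, SD 0.22 log2 units, 0.191 without clone N), and the next clone below N was M at 60.3 CPM. SEC24B had the smallest SD of the coat genes with TMM factors, from 49.6 CPM in clone I to 65.2 CPM in clone D (median 59.3 CPM, SD 0.11). Of the 10351 genes with enough reads in the clones, only 0.715% had a smaller SD than SEC24B, and counting error alone makes up 21.0% of its variance. SEC24C ran from 169.1 CPM in clone K to 236.7 CPM in clone O (median 196.8 CPM, SD 0.15), with clone C at 234.5 CPM. SEC24D, the adaptor tied to collagen-rich tissue by its human mutations, ran from 259.1 CPM in clone L to 435.9 CPM in clone M (median 353.3 CPM, SD 0.22), with clone N second lowest at 265.8 CPM.

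In the outer cage, SEC31A was the steadier gene, from 366.9 CPM in clone D through a median of 435.9 CPM to 507.8 CPM in clone F (SD 0.16 log2 units). SEC13 had the widest range of the coat genes with TMM factors, from 122.0 CPM in clone N through a median of 184.5 CPM to 249.5 CPM in clone A, a 2.05-fold range (SD 0.28). Clone N stood below the next clone, Q at 147.1 CPM, and without it the SD of SEC13 was 0.238, against 0.237 for SEC23A. With library totals the SD was 0.260 for SEC13 and 0.268 for SEC24A. The first rank by SD thus depends on the scaling, and without clone N it was nearly shared with SEC23A. SEC13 is also a building block of the nuclear pore, so its RNA serves more than the coat. Even so, 43.6% of the 10351 genes had a smaller SD than SEC13, and the share was lower for each of the other 9 coat genes. The median SD of the 10 genes was 0.19 log2 units, against 0.30 for all genes with enough reads. That set also holds genes with fewer reads than the coat genes, whose SD holds more counting error, and genes of similar read number were not compared. With reads scaled by library totals alone, the SD of SEC24C was 0.219, that of SEC24B 0.141 and that of SEC31A 0.111, so the order of the steadier genes depends on the scaling.

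In a test of each clone against the other 16 clones (edgeR quasi-likelihood, Benjamini-Hochberg adjustment over all genes of each fit), 0 of 170 member tests passed an adjusted p of 0.05, where 0.045% of all such tests did. DESeq2 also called 0 of 170. Without adjustment 4 of 170 had a p under 0.05 by edgeR and 5 of 170 by DESeq2, where 4.4% of all genes did so by edgeR. SEC24A was higher in clone N (log2 difference 0.51, SE 0.19, edgeR p = 0.0146, adjusted p = 0.196). SEC13 was lower in the same clone (log2 difference -0.63, SE 0.26, edgeR p = 0.0268, adjusted p = 0.242), in which 16.5% of all genes had a p under 0.05 and 0.731% were called. The others were SEC24D in clone L (log2 difference -0.48, SE 0.23, edgeR p = 0.0498, adjusted p = 0.583), where 8.56% of all genes had a p under 0.05, and SEC24B in clone I (log2 difference -0.28, SE 0.13, edgeR p = 0.0419, adjusted p = 1.0), where 1.91% had. Without clone N in any fit, 0 of 160 tests were called and 2 had an unadjusted p under 0.05 by edgeR. No clone could thus be set apart from the rest by a coat gene, and a single library is a weak basis for doing so. The shares over all genes for DESeq2 and for the fits without clone N are not given here.

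The balance between paralogs does not depend on how libraries are scaled, because both genes are counted in the same library. Of the reads on the SEC23 genes, SEC23A took 67.4% in clone C (95% exact binomial interval 66.1 to 68.6%) and 79.8% in clone F (78.9 to 80.8%), with a median of 73.8%. This corresponds to 2.06 SEC23A reads per SEC23B read in clone C and 3.96 in clone F. The log2 ratio had an SD of 0.29 between clones, and counting error alone gives 0.042. The spread over these libraries was thus wider than counting error, but with 1 library a clone the error of culture and library preparation is not known. A short read may also not always separate close paralogs, and the intervals cover counting error only.

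SEC24C with SEC24D had a Pearson r of -0.31 over the 17 clones (Spearman rho -0.292, r = -0.300 without clones C and O). SEC24C took 30.3% of the reads of this pair in clone F (29.3 to 31.3%) and 44.1% in clone L (43.0 to 45.3%), and the SD of the log2 ratio was 0.30 against 0.034 from counting. The pair SEC24A and SEC24B ran from 39.8% SEC24A in clone D to 53.1% in clone I, with an SD of 0.24 against 0.072 from counting. SAR1A took 82.3% of the SAR1 reads in clone K and 88.4% in clone A, where the SD of 0.17 compares with 0.082 from counting. Clone N was the extreme for the adaptors as a whole, with 22.3% of all SEC24 reads on SEC24A and SEC24B (21.5 to 23.2%) against 13.5% in clone A (12.8 to 14.3%) and a median of 16.4%. Clones A and N thus lay at opposite ends, with SEC24A lowest and SEC13 highest in A and the reverse in N.

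**Figure D2:**
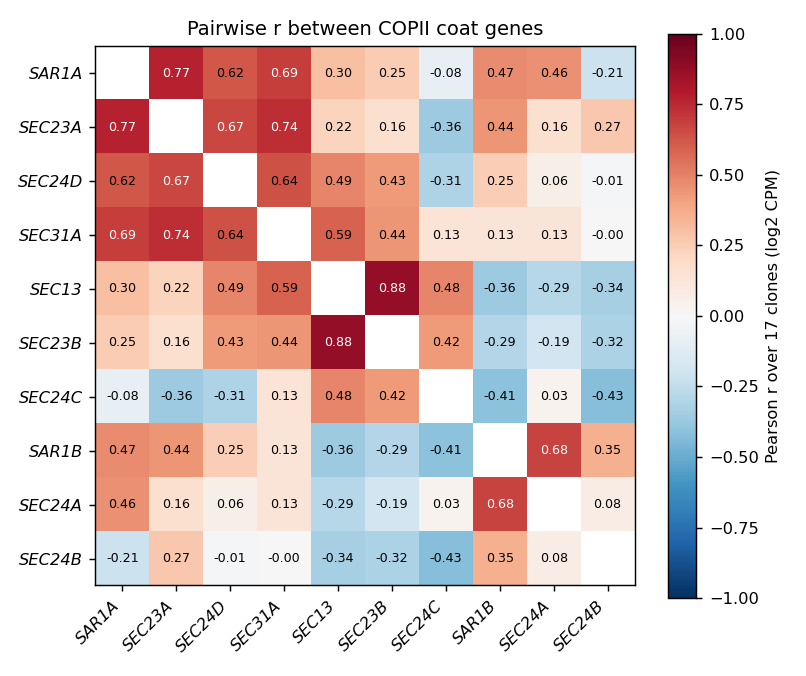
Pearson r between the coat genes over the 17 clones, from log2 CPM (TMM scaled), with red for positive and blue for negative values. SEC13 with SEC23B had the highest value of the 45 pairs (0.877), and SAR1A, SEC23A, SEC24D and SEC31A form a block of pairs between 0.621 and 0.772.

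The coat genes did not rise and fall as 1 unit. Correlations over the 17 clones are given as a description, since the points share library chemistry and scaling and some may share an animal. Of the 45 pairs, 31 had a positive r, against 49.9% of all gene pairs (33 against 59.6% with library totals), and the median r was 0.221, where the median over all pairs of the 10351 genes was -0.00107. An r above 0.5 was seen in 9 of 45 pairs and in 12.2% of all gene pairs, and with library totals in 9 of 45 and 18.3%. SAR1A, SEC23A, SEC24D and SEC31A went together with r between 0.621 (SAR1A with SEC24D) and 0.772 (SAR1A with SEC23A). They supply a GTPase, an inner coat protein, an adaptor and a part of the outer cage, and were grouped after their values were seen. The other cage gene, SEC13, had r = 0.3 with SAR1A, 0.221 with SEC23A, 0.488 with SEC24D and 0.587 with SEC31A. The block of SAR1A, SEC23A, SEC24D and SEC31A depends on the scaling. With library totals SAR1A with SEC23A had r = 0.553, but SEC24D with SEC31A had 0.212 and SEC23A with SEC24D 0.310.

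SEC13 and SEC23B were the tightest pair, with r = 0.877 (Spearman rho 0.922, r = 0.916 without clones G and I, which lie farthest from the median of SEC23B, and 0.861 without clone N). An r at least as high was found in 0.273% of all gene pairs (1.11% with library totals), but this pair was picked as the highest of 45. The value was 0.880 with RLE factors of edgeR and 0.849 with library totals, and it lay between 0.861 and 0.901 when single clones were left out. Clones A, O, C, I and G were the highest for both genes, and clones N and Q the lowest for both. The read ratio of SEC13 to SEC23B had an SD of 0.14 log2 units between clones, narrower than either gene alone. The r of SEC13 with its cage partner SEC31A was lower, at 0.587 (Spearman rho 0.581, r = 0.606 without clone N). SEC13 also moved with a library property, the share of reads outside genes (r = -0.624 over the 17 clones, and -0.404 for SEC23B). The part of this share in the result was not tested. Clone N had the highest share (26.81%), and r without it is not given here.

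**Figure D3:**
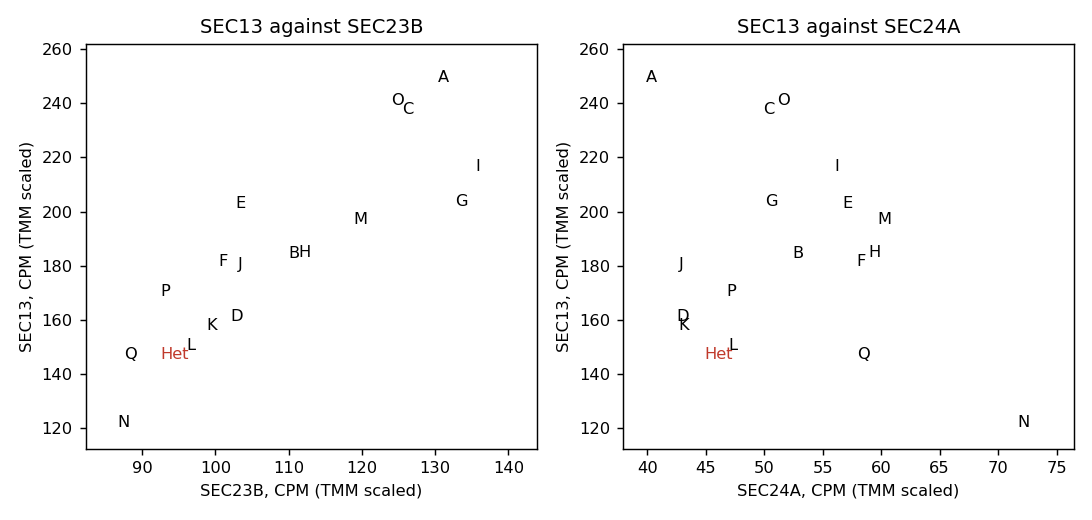
SEC13 (CPM, TMM scaled) against SEC23B on the left and against SEC24A on the right, each letter a clone and Het the heterogeneous library. On the left the clones line up from N to A, while on the right clones A and N stand at opposite corners and without them r is 0.298.

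SEC24A and SAR1B formed a further pair (r = 0.677, Spearman rho 0.686, r = 0.653 without clones B and N, 0.586 without clone N alone, 0.790 with library totals). In the RefSeq gene table of the later cattle assembly ARS-UCD2.0 these genes are neighbours, with 0 genes starting between the end of SAR1B and the start of SEC24A. SEC24A and SEC13 had r = -0.286, but without clones A and N, which lie farthest from the median of SEC24A, it was 0.298, and 0.0297 without clone N alone, so the negative value rests on those clones. SEC24B and SEC24C followed the other coat genes least. Their r with the mean of the other 9 (each gene centred and scaled over the clones) was -0.115 and -0.0981, against 0.785 for SEC31A, 0.731 for SAR1A and 0.679 for SEC23A. With library totals SEC24C had 0.429 and SEC24B 0.0749, so the sign of both depends on the scaling, and SEC23A had 0.169.

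The mean of all 10 centred and scaled genes, called the COPII profile here, was highest in clones E (0.66), M (0.64), B (0.62) and F (0.62) and lowest in clones P (-0.87), L (-0.79) and D (-0.72). Of the 10341 other genes, the 10 with the highest r with it over the 17 clones are named here with what each is known for, and 2 of them, KDELR3 and KDELR2, stand in a pathway list. KDELR3 (r = 0.910, Spearman rho 0.924) and KDELR2 (r = 0.869) encode receptors that return escaped residents to the endoplasmic reticulum. OSTC (0.871) and STT3A (0.847) encode subunits of the enzyme that attaches N-glycans, and PGM3 (0.849) makes a sugar precursor for them. SEC23IP (0.857) encodes a partner protein of SEC23, FKBP11 (0.856) a prolyl isomerase of the secretory route and ARF4 (0.843) a GTPase of the Golgi. MMADHC (0.897), a vitamin B12 trafficking gene, and EPB41L2 (0.874), a membrane skeleton gene, were the others.

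KDELR3 itself ran from 153 CPM in clone D through a median of 234 CPM to 360.4 CPM in clone F, a wider spread (SD 0.36 log2 units) than any coat gene. STT3A ran from 358 CPM in clone P through 532 CPM to 686.3 CPM in clone M. Without clones L and P, the farthest from the median of the profile, the r of the 10 genes lay between 0.796 (STT3A) and 0.912 (KDELR3). The ranking depends on the scaling, since 8 of these 10 genes were also among the first 10 with RLE factors of edgeR. With library totals only 1 of 10 was, and there KDELR3 had r = 0.518 and ARF4 0.866. The 10 most abundant genes of a library took 13.39 to 28.9% of the reads in the clones, and the profile moved with the TMM factor (r = -0.561, Spearman rho -0.505, r = -0.386 without the 2 farthest clones, and 0.513 with library totals). The part of these properties in the profile was not tested.

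Genes that act beside the coat were grouped in 7 lists of 110 genes, of which 100 were present by symbol and had enough reads. MIA2, CNIH1, SEC22B and TRAPPC12 were absent by symbol from the count files, so their levels are not known. An r above 0.5 with the COPII profile was found for 7.31% of all genes. Among genes of the COPI coat and the return route it was found for 9 of 17 (median r 0.513), for 6 of 10 translocon genes (median 0.554), for 7 of 17 genes of the endoplasmic reticulum stress response (median 0.489) and for 5 of 15 cargo receptors (median 0.438). ARCN1, the COPI delta subunit, had r = 0.769, the translocon genes SSR3 and SEC61B had 0.837 and 0.771, the chaperone HSP90B1 had 0.745, and the cargo receptor LMAN1, which carries coagulation factors, had 0.833. With library totals the share over all genes was 19.5% and the counts were 8 of 17, 5 of 10, 4 of 17 and 6 of 15. The profile stands for some coat genes more than others. With TMM factors its r was 0.852 with SEC31A, but 0.0919 with SEC24C and 0.0743 with SEC24B. The remaining coat genes lay between 0.404 (SEC24A) and 0.813 (SAR1A). The mean of the COPI list (genes centred and scaled) had r = 0.887 with SEC31A, 0.135 with SEC24C and -0.263 with SEC24B. For the translocon list these were 0.722, -0.286 and 0.106.

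For tethering and fusion with the Golgi an r above 0.5 was found for 4 of 16 genes (median 0.274), led by the SNARE gene YKT6 (0.837), but for 1 of 16 with library totals, below the 19.5% of all genes. Regulators of the coat, such as SEC16A and PREB, the exchange factor of SAR1, had 1 of 9, STAM2 at 0.678, and a median of 0.124, and also 1 of 9 with library totals. The secreted matrix itself had 1 of 16, COL5A1 at 0.561, with a median of 0.0628, and 0 of 16 with a median of -0.115 with library totals. COL1A1 had r = 0.489 with the profile, aggrecan (ACAN) -0.491 and fibronectin (FN1) -0.325, and with library totals these were -0.374, -0.0535 and -0.137. The matrix genes also spread far more than the coat, with a median SD of 0.72 log2 units against 0.19.

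**Figure D4:**
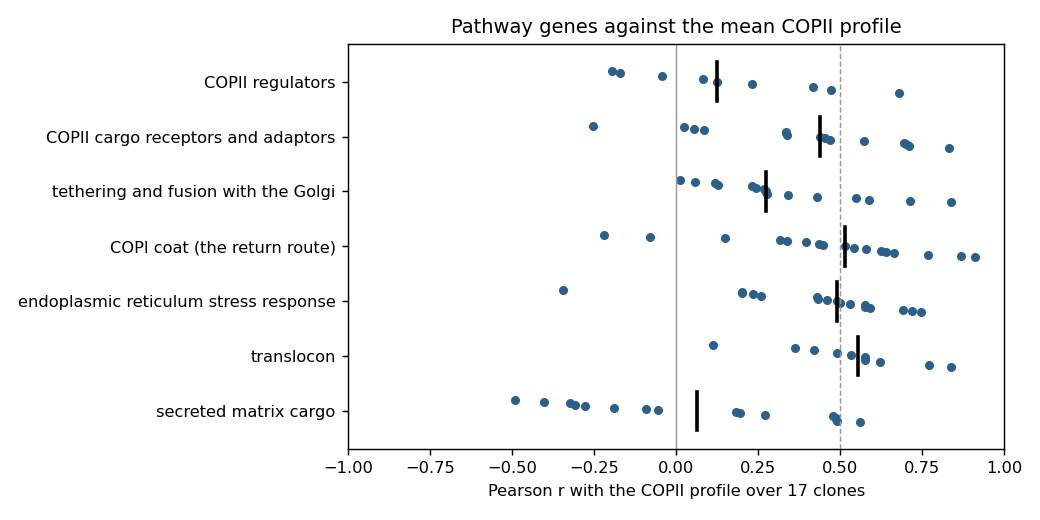
Pearson r over the 17 clones of each pathway gene (blue points, 100 genes in 7 lists) with the COPII profile, with the median of each list as a black bar, 0 as a solid line and 0.5 as a dashed line. The medians of the COPI and translocon lists lie right of 0.5 and that of secreted matrix cargo lies near 0.

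Some single coat genes had pathway genes that followed them closely, and SEC13, SEC23B and SEC31A were looked at for this. SEC61A1, the pore of the translocon, had r = 0.948 with SEC13 and the cargo receptor SURF4 0.947, followed by the stress response gene SDF2L1 (0.909) and the COPI subunits COPZ1 (0.886) and COPG1 (0.882). In all 8 of 100 pathway genes had an r above 0.8 with SEC13, against 1.48% of all genes. Clone N was the lowest clone for SEC13 and, among these genes, for SEC61A1, SURF4, SDF2L1, COPZ1, COPG1, CREB3L1 and ARF1, but not for TMED2. Values of r without clone N are not given here, so how far the count rests on that clone is not known. With library totals SEC61A1 had 0.939 and SURF4 0.938, and 6 of 100 genes passed 0.8, against 1.5% of all genes. For SEC23B 2 of 100 passed 0.8 with TMM factors (ARF1 and COPZ1, the latter at 0.859), against 0.841% of all genes. For SEC31A 1 of 100 did (KDELR3), against 0.0966%. With library totals the counts were 3 of 100 for SEC23B, against 2.34%, and 0 of 100 for SEC31A, against 0.00966%. SEC61A1, SURF4 and the others were singled out after their values were seen.

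In the heterogeneous library most coat genes lay in the lower part of the range of the clones. SAR1A had 110.5 CPM there, below the 121.9 to 175.2 CPM of the clones, and SEC31A had 354.3 CPM, below their 366.9 to 507.8 CPM. SEC23A (249.9 CPM) and SEC24C (170.4 CPM) each lay below 16 of the 17 clones, while SEC24B (61.5 CPM) lay above 11 of them. The summed level of the coat was 1569.2 CPM, or 82.6% of the clone median, with the lowest clone (L) at 1618.8 CPM. In any of these populations, fewer cells with high levels and less RNA per cell cannot be told apart.

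None of these differences passed the test. Against the 17 clones, 0 of 10 coat genes had an adjusted p under 0.05 (edgeR quasi-likelihood test, Benjamini-Hochberg adjustment over 11878 genes), where 1.22% of all genes tested did, and 0.00842% did with a lower level. DESeq2 and limma also called 0 of 10. The difference was negative in 9 of 10 genes, against 53.5% of all genes, with a median of -0.25 log2 units against -0.04 for all genes. SAR1A had a log2 difference of -0.44 (SE 0.19, edgeR p = 0.0337, adjusted p = 0.602) and was the 1 coat gene with an unadjusted p under 0.05, as 7.68% of all genes had. SEC31A had -0.32 (SE 0.19, edgeR p = 0.108, adjusted p = 0.698) and SEC13 -0.36 (SE 0.29, edgeR p = 0.223, adjusted p = 0.755). SEC24B had 0.03 (SE 0.14, edgeR p = 0.829, adjusted p = 0.967), and with library totals -0.06.

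**Figure D5:**
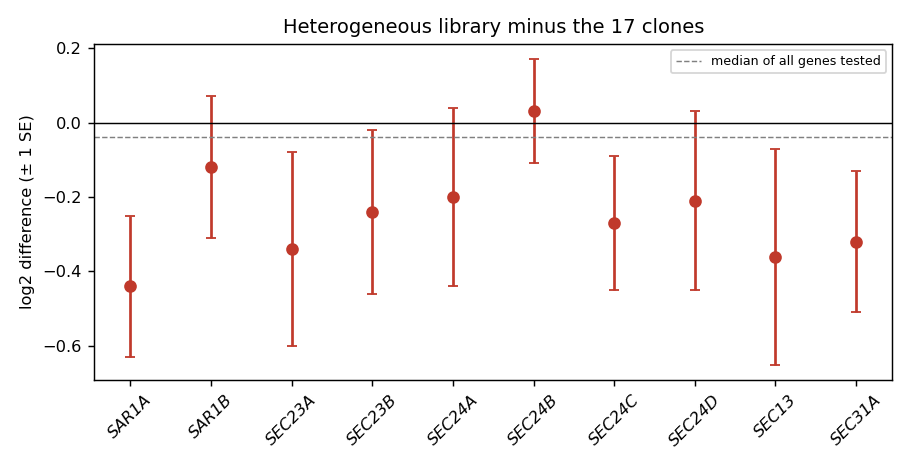
Log2 difference of each coat gene between the heterogeneous library and the 17 clones (points, edgeR, with bars of 1 SE) beside 0 (solid line) and the median of all genes tested (-0.04, dashed line). The points run from -0.44 (SAR1A) to 0.03 (SEC24B), and none passed the test.

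A count of genes below every clone gives 2 of 10 (SAR1A and SEC31A), against 8.16% of all genes tested. With RLE factors of edgeR it was 2 of 10 against 8.65%, and with library totals 6 of 10 against 10.9%. Above every clone lay 0 of 10, against 10% of all genes (9.69% with RLE factors of edgeR and 6.62% with library totals). The clones are compared with 1 library, and changes of the size seen here were not simulated. On simulated counts the test found 6.5% of genes changed by 1 log2 unit and 80% of those changed by 2. The changed genes were drawn without regard to their spread. These shares need not hold for the coat genes, whose median SD was smaller than that of all genes. The macrophage markers in this library are given above, and their part in the lower coat levels was not tested.

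The paralog balance of the heterogeneous library lay within that of the clones. SEC23A took 72.6% of the SEC23 reads (71.3 to 73.8%), SEC24C 35.4% of its pair (34.3 to 36.5%) and SAR1A 82.5% of the SAR1 reads (80.8 to 84.2%), the last above 1 of 17 clones. SEC24A and SEC24B together took 18.3% of all SEC24 reads (17.5 to 19.1%), above 15 of 17 clones.

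None of the pathway genes was called in the heterogeneous library. Of the 100 tested, 0 were called by edgeR, DESeq2 or limma, where edgeR called 1.22% of all genes, and 72 had a negative difference, against 53.5% of all genes. An unadjusted p under 0.05 was found for 5 of 100 by edgeR, against 7.68% of all genes, for 10 by DESeq2, against 1098 of 11878 genes, and for 6 by limma, against 973 of 11878. In the COPI list 15 of 17 genes had a negative difference (median -0.26, against -0.04 for all genes), with KDELR3 at 149.3 CPM against 153 to 360.4 CPM in the clones (log2 difference -0.77, SE 0.38) and KDELR2 at -0.45 (SE 0.22). The medians were -0.24 for cargo receptors (LMAN1 -0.85, SE 0.49, and TMED2 -0.53, SE 0.24), -0.20 for the translocon (SEC61G -0.67, SE 0.21, and SSR1 -0.59, SE 0.24) and -0.15 for tethering and fusion (YKT6 -0.37, SE 0.24, and USO1 -0.29, SE 0.26). They were -0.10 for regulators (SEC16B -0.56, SE 0.59, and TFG -0.38, SE 0.20) and -0.05 for the stress response, close to that of all genes (MANF -1.33, SE 0.59, and PDIA4 -0.81, SE 0.47). The secreted matrix list had a median of -0.19, with COL2A1 (-3.81, SE 2.71) and ACAN (-3.20, SE 2.62) at the largest differences and wide errors. COL1A1 had 114649.8 CPM in this library against at most 102504.2 CPM in a clone (log2 difference 0.85, SE 0.64).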

How the data were processed

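Poly-adenylated RNA of 18 cultures was read from 1 end. STAR (2.3.0e per the submitters' processing notes) was used by the authors for alignment to bosTau7 and HTSeq for counts per RefSeq gene. The deposited values are raw read counts per gene, without normalization. The strand setting of the counting is not given in the sources used here. Tally lines that name no gene, 18.78% to 26.81% of reads outside genes and 0.164% to 0.192% ambiguous reads, stayed out of library sizes and tests. The table of the whole series was not used. No 2 files held identical counts.

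Levels are CPM with TMM factors over all 18 libraries, and log2 values add 0.25 CPM. Tests used edgeR 4.0.16 (TMM, filterByExpr, glmQLFit, glmQLFTest) in R 4.3.3, with DESeq2 1.42.0 and limma 3.58.1 as alternatives, on all genes. The heterogeneous population has 1 library, whose spread is taken to equal that of the clones. Other alternatives were the scaling, the filter, the pseudocount (1 CPM) and the clones in the fit. The edgeR test was tested on simulated counts with 200 changed genes. Python 3.11.15 did the rest. Transcript lengths were not used, and 15471 of the 16989 symbols match the ARS-UCD2.0 RefSeq table, the 10 coat genes included.

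The coat genes and the pathway and marker lists were chosen with earlier results of these data known. Named are the 10 coat genes, the 2 genes of each list with the largest difference in the heterogeneous library, and the 10 genes most like the COPII profile; further genes were named after their values were seen. Separate cultures were sequenced once each, so p-values measure the spread between these cultures, whose animals of origin are not given in the sources used here.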

Additional observations from a re-analysis of the deposited data

How the results depend on the processing

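No coat gene and no pathway gene was called in the heterogeneous library under DESeq2, limma or RLE factors of edgeR. The same held with library totals, with no filter on low counts, and without clones N, M or both. No coat gene was called in a single clone under the alternatives tried there. The smallest adjusted p of a coat gene in the heterogeneous library over these settings was 0.358 (SAR1A, DESeq2). The median SD of the coat genes over clones stayed between 0.181 and 0.194 with each clone left out in turn. Scaling by library totals had the largest effect. It turned the difference of SEC24B in the heterogeneous library to -0.06, raised the number of coat genes below every clone from 2 to 6, and turned the median r of secreted matrix genes with the COPII profile to -0.115, where the median r over all genes was 0.195. The alternatives for the summed level, for the counts outside the clones and for the correlations were added after seeing the data, and the others were planned. No paired analysis was possible because the clones are named by letters, the labels tie no clone to the heterogeneous population, and this has 1 library.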
